A study of Mus musculus with 12 samples.

Results

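Open chromatin was described at 10 mouse genes of the TGF-beta pathway: the ligands Tgfb1, Tgfb2 and Tgfb3, the latent binding protein Ltbp1, the receptors Tgfbr1 and Tgfbr3, the signal transducers Smad2 and Smad3, and the inhibitory Smad6 and Smad7. The genes were chosen for their pathway, with earlier results of these data known. Peaks of all 12 libraries that overlapped by at least 1 bp were merged into regions, and a region belonged to the protein-coding gene whose interval lay nearest, within 100 kb. By this rule the 10 genes held 251 of the 136540 regions with a gene in reach. A library counted as calling a region when its own list held a peak there.

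The libraries came from ATAC-seq, in which a transposase cuts accessible DNA and tags it for sequencing. All are labelled MSCLCs, an abbreviation the labels leave unexplained, and the series title speaks of bone mesenchymal stem cells, IGF-1, YAP1 and EWS::FLI1, a fusion protein that drives Ewing sarcoma. The genotype labels are EF_IGF1_xeno (n = 1, titled S_221), EF_IGF1 (n = 2, titled S_220 and S_221), EF (n = 4, 2 libraries of S_220 and 2 of S_221), Wt_IGF1 (n = 1, titled BM) and Wt (n = 4, titled WT_1, WT_2, BM and S_203). The design text instead lists WT, EFPrx1, ha-EFPrx1 and hr-EFPrx1 cells without tying these names to libraries. No label gives a dose, a time, an age, a strain, the promoter behind EF or the host of the xeno cells. Replicates 1 and 2 of EF and of Wt shared flowcell BSF_0654, and BSF_1013 carried the remaining 8 libraries. No label ties replicates to separate animals or cultures, so a p-value here measures the spread between these libraries, which may be technical. The permutation tests treat the 4 EF libraries as separate, although they carry only 2 line titles. Bulk libraries also cannot tell fewer cells with an open region from less opening per cell.

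TGF-beta is secreted in a latent complex. Its propeptide stays bound to the ligand and is tied to latent binding proteins such as LTBP1, which anchor it in the matrix until integrins or proteases release it. Free ligand joins the type II receptor with the type I receptor TGFBR1, helped by the co-receptor betaglycan (TGFBR3), and the type I receptor then phosphorylates SMAD2 and SMAD3, which enter the nucleus with SMAD4. SMAD7 and SMAD6 hold the pathway back, SMAD6 acting mostly on the BMP branch. Bone matrix is a large store of latent TGF-beta, and the pathway steers the growth and differentiation of mesenchymal cells.

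Chromatin at an annotated start of Tgfbr1, Smad3, Smad6 and Ltbp1 was open in 10 or more of the 12 libraries, and at that of Tgfb1 in 9. No promoter window was at hand for Tgfb3, Tgfbr3, Smad2 and Smad7. RefSeq (GRCm38.p6) promoter windows, which run from 250 bases before to 50 after a start, were at hand for Tgfb1, Tgfb2, Tgfbr1, Smad3, Smad6 and Ltbp1. The 7 windows below are shown because the calls differ between them: 6 lie in a called region and 1, that of Tgfb2, does not. They are written 5′ to 3′ on the strand of the gene, and capitals mark a match on either strand to one of the motifs searched, which are CAGAC and GGCGCC (SMAD), TGAGTCA (AP-1), GGAATG (TEAD), CCGGAAG (ETS), GGAAGGAA (a GGAA repeat) and GGGCGG (SP and KLF factors). GTCTAGAC, a palindrome of the SMAD box, was added to the search after the Smad6 window had been read.
Tgfb1, chr7:25686752-25687051, plus strand: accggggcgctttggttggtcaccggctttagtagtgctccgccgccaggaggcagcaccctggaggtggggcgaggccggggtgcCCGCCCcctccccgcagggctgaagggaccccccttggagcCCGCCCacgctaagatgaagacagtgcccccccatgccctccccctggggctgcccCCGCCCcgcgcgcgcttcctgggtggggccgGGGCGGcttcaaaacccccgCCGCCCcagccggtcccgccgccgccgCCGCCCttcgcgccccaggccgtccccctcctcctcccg
Tgfb2, chr1:186705940-186706239, minus strand: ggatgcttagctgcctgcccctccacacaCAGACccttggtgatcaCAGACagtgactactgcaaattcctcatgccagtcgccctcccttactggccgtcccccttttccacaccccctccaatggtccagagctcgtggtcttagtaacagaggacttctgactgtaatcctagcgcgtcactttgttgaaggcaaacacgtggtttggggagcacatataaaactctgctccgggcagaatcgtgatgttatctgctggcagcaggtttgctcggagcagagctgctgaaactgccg
Tgfbr1, chr4:47352972-47353271, plus strand: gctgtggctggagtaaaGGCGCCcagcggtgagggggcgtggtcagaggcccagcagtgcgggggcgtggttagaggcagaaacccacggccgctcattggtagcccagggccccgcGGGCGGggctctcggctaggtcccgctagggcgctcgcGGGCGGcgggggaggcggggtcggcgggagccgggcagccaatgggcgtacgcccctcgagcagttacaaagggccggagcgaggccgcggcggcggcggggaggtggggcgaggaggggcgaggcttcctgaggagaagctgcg
Smad3, chr9:63757945-63758244, minus strand: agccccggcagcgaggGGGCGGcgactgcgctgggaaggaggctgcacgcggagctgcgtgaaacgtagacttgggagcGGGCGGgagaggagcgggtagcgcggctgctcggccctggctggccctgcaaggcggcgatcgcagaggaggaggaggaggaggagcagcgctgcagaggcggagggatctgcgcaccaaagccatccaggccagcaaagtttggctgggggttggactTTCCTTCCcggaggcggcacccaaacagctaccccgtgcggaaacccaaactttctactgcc
Smad6, chr9:64022010-64022309, minus strand: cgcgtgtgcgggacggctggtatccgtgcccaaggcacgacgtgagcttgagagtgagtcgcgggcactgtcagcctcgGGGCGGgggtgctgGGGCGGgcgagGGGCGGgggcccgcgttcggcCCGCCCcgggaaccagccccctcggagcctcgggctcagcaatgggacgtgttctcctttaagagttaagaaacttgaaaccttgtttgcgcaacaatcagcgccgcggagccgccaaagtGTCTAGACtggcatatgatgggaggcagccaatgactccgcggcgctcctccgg
Ltbp1, outer start, chr17:75005279-75005578, plus strand: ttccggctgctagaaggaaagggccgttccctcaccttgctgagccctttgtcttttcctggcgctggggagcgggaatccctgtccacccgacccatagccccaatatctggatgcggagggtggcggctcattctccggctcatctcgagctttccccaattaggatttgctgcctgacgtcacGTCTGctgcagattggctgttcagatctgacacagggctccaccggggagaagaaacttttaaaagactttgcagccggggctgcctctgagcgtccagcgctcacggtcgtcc
Ltbp1, inner start, chr17:75178531-75178830, plus strand: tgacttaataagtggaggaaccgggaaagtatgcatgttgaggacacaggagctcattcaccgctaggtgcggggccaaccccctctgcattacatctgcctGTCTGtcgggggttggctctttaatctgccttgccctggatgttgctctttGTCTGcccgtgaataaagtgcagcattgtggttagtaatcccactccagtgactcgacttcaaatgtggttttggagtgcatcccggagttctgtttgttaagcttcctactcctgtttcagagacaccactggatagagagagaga

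The windows fell into a GC-rich and a GC-poorer set. The Tgfb1, Tgfbr1, Smad3 and Smad6 windows were 77.0%, 74.7%, 67.7% and 66.3% G or C, and they held 6, 2, 2 and 4 matches to GGGCGG, a motif found in 35.9% of the 32619 RefSeq promoter windows. The Tgfb2 window and the inner and outer Ltbp1 windows were 54.3%, 50.0% and 58.7% G or C, held no GGGCGG, and had 2, 2 and 1 matches to CAGAC, which 49.5% of all windows hold. Tgfbr1 had the only GGCGCC (12.0% of all windows), Smad3 the only GGAAGGAA among those printed (3.69%) and Smad6 the only GTCTAGAC (0.215%). No printed window held TGAGTCA (5.22% of all), GGAATG (14.6%) or CCGGAAG (8.92%). A match describes the letters only, and CAGAC is short enough to occur in many windows.

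Tgfbr1, which encodes the type I receptor, had the start called most widely. Its region chr4:47352173-47353839 was called in all 12 libraries, with a fold over local background of 13.9 in EF_IGF1_xeno, of 9.24 and 11.9 in EF_IGF1, of 9.48, 11.9, 10.6 and 13.0 in EF, of 10.6 in Wt_IGF1 and of 6.08, 9.04, 11.1 and 12.0 in Wt. These folds are the authors' own value for the strongest peak within each list and are not compared between libraries. A second annotated Tgfbr1 start, inside the gene, had no region, the nearest lying 5533 bp away. The starts of Smad3 and Smad6 were called in every library but Wt replicate 1, and the outer Ltbp1 start in every library but EF replicate 2 and Wt replicate 1. The Tgfb1 start was called in 9 libraries, missing in EF replicate 2 and in Wt replicates 1 and 3. The inner Ltbp1 start lies 173076 bp into the gene and was called in the 10 libraries other than Wt replicates 1 and 2. The Tgfb2 window belongs to a start at chr1:186705989, inside the gene interval. Distances for Tgfb2 are counted from the outer end of that interval, chr1:186709697. The window touched no region, and the nearest region, inside the gene, ended 39 bp from it and was called in 10 libraries.

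Only Tgfb1, Tgfbr1 and Smad2 had a region called in all 12 libraries, 1 region each, or 1.20% of the 251 regions against 4.20% of all regions. That of Tgfb1 lies inside the gene, 2208 bp after its start (chr7:25688744-25689676), and that of Smad2 lies across an end of the gene. Tgfb3, Tgfbr3 and Smad7 each had a region across an end of the gene in 11 libraries, all but Wt replicate 1. Apart from Wt replicate 1, every library thus had an open gene end at Tgfb3, Tgfbr3, Smad2 and Smad7.

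Several libraries stood apart, and they bear on every comparison below. The shortest list had 7748 peaks (Wt replicate 1) and the longest 83718 (Wt_IGF1), and 1.59% to 56.6% of the 251 regions were called, with the same 2 libraries at the ends. Wt replicate 1 called 4 of the 251 regions. In Wt replicate 2, 70.7% of the 99 regions of a hematopoietic marker list were called, against 7.07% to 31.3% in the other 11 libraries. The macrophage gene Adgre1 had all of its 6 regions called there, 1 in Wt_IGF1 and 0 elsewhere. The collagen gene Col1a2, a mesenchymal marker, had 0 of its 19 regions called in Wt replicates 1 and 2 and 8 to 14 in the others. Pdgfra, another mesenchymal marker, had 6 of its 17 regions called in Wt replicate 2, 0 in Wt replicate 1 and 1 to 6 in the others. Over all 9 mesenchymal markers, 0.498% and 26.4% of 201 regions were called in Wt replicates 1 and 2 and 20.9% to 56.7% in the rest. The EF_IGF1 library labelled line S_220 shared more of its calls with EF replicate 4, of line S_221 (a Jaccard index of 0.599 over all regions), than with EF replicate 3, of its own line (0.406).

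The genes differed widely in how many regions they held. Ltbp1 had 61, the 57th highest number of the 17836 genes with a region, Smad6 had 43, Smad3 40 and Tgfbr3 36, where the median gene had 4.00 and the most region-rich gene 115. Tgfb2 had 20, Smad7 17, Tgfbr1 13, Smad2 12, Tgfb1 6 and Tgfb3 3. Of the 251, 162 lay inside their gene (64.5%, against 62.1% of all regions), 89 outside, and 13 within 1 kb of a gene end. Regions were called in a median of 3 libraries, as over all regions, and 74 (29.5%) were called in 1 library, against 35.7% of all regions. The table of genes used here gives no exons, so inside means within the gene interval.

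**Figure D1:**
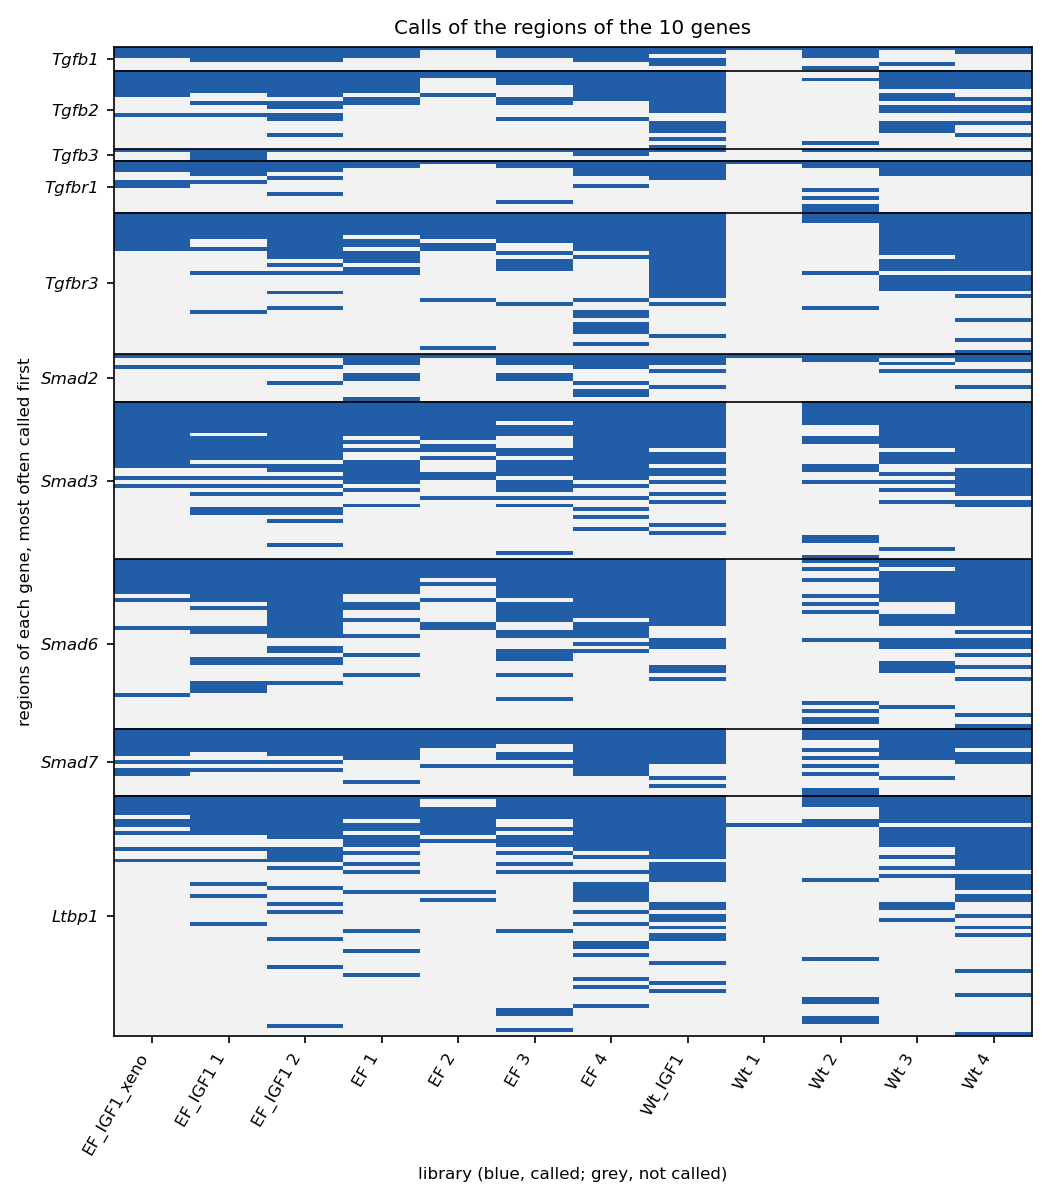
Calls of the 251 regions (rows, grouped by gene and ordered by the number of libraries) in the 12 libraries (columns); blue is called and grey is not called. The Wt 1 column holds 4 calls and the Wt 2 column 65, many of them in rows that no other library fills.

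A core of regions was shared by the 10 libraries other than Wt replicates 1 and 2. This pattern was chosen after the values were seen and is a description. It held 14 of the 251 regions (5.58%), against 2.17% of all regions: 4 of Smad6, 3 of Tgfbr3, 2 each of Tgfb2, Smad3 and Ltbp1, and 1 of Smad7. Smad6 and Ltbp1 had the strongest of them. The Smad6 region chr9:63941558-63942585 lies 80014 bp after the start and beyond the end of the gene, with a fold of 18.0 in EF_IGF1_xeno, 15.3 and 15.0 in EF_IGF1, 13.0, 12.7, 11.0 and 16.0 in EF, 12.3 in Wt_IGF1 and 13.0 and 15.5 in Wt replicates 3 and 4. Between 0.862% and 15.5% of a library's peaks had a higher fold. The Ltbp1 region chr17:75255651-75256407, 250549 bp into the gene, had folds of 17.7 in EF_IGF1_xeno, 16.7 and 14.4 in EF_IGF1, 12.3, 10.5, 12.4 and 14.6 in EF, 14.2 in Wt_IGF1 and 10.4 and 13.3 in Wt replicates 3 and 4. These folds are each library's own. Wt replicate 2 alone called 20 regions (7.97%, against 15.3% of all regions), of which Ltbp1 held 5, Tgfbr1 4 and Smad6 4.

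EF cells were first set against Wt cells over all 8 libraries. Gained regions needed a call from at least 3 of the 4 EF libraries and none from the 4 Wt libraries, and lost regions the opposite. By this rule 4 of the 251 regions were gained (1.59%, against 1.15% of all regions) and 1 was lost (0.398%, against 0.978%). Ltbp1 had 2 gained regions, Smad3 1 and Smad6 1, and the lost region was at Smad6. With 1 library left out and 3 calls still needed, 1, 2, 1 and 0 regions were gained without EF replicate 1, 2, 3 and 4, and 7 without Wt replicate 2 or 4. The lost region then met the rule without Wt replicate 1 and in no set that left out Wt replicate 2, 3 or 4. With the rule eased to 2 of the 3 libraries left, 8, 12, 7 and 9 regions were gained without EF replicate 1, 2, 3 and 4, and 15, 14 and 2 were lost without Wt replicate 1, 2 and 3.

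Ltbp1 had both of its gained regions deep inside the gene. The region chr17:75369294-75369804, 364069 bp from the outer start, was called with a fold of 9.24, 8.58 and 5.0 in EF replicates 1, 3 and 4, in no Wt library and in neither EF_IGF1 library nor EF_IGF1_xeno, but with 5.90 in Wt_IGF1. The region chr17:75258539-75258967 was called in EF replicates 1, 2 and 4 (5.37, 5.06 and 3.44) and in no library of any other group. It starts 2132 bp past the end of the strong shared Ltbp1 region. At Smad3, the region chr9:63720647-63720976, 37182 bp into the gene, was called in EF replicates 2, 3 and 4 (6.04, 4.29 and 3.29) and nowhere else. The gained Smad6 region, chr9:63856454-63856789, lies 165464 bp after the start and was called in EF replicates 1, 3 and 4 (5.88, 5.47 and 6.72), with 6.69 in EF_IGF1 replicate 2. It lies 96287 bp beyond the end of Smad6, on the side of Smad3, and a limit of 20 kb to a gene left 3 gained regions without it.

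The lost Smad6 region lies inside the gene, 32670 bp after its start (chr9:63988981-63989848). It was called in none of the 7 EF, EF_IGF1 and EF_IGF1_xeno libraries, with a fold of 6.36 in Wt_IGF1 and of 6.44, 5.98 and 5.32 in Wt replicates 2, 3 and 4. Only Wt replicate 1 of the Wt libraries missed it.

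Within flowcell BSF_1013, where 2 EF libraries meet 2 Wt libraries, more regions met the rule of 2 of 2 against 0 of 2. Gained regions numbered 8 (3.19%, against 1.89% of all regions) and lost regions 14 (5.58%, against 4.40%). The gained ones were spread over Smad3 and Smad6 (2 each) and Tgfb1, Tgfb2, Smad7 and Ltbp1 (1 each). The lost ones were at Tgfbr3 (4), Tgfb2 and Smad6 (3 each), Ltbp1 (2) and Smad2 and Smad3 (1 each). None of the 14 lost regions was called in EF replicates 1 or 2, which the rule did not use, where 9.64% and 1.82% of the lost regions of all genes were called. Wt_IGF1, likewise unused, called all 14 (93.1% over all genes), and Wt replicate 2 called 1 (23.2% over all genes). Leaving the 2 Wt libraries of BSF_0654 out of the comparison of all libraries also gave 8 gained and 14 lost regions, against 1.46% and 3.92% of all regions.

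Tgfb1 had 1 region gained on that flowcell, just beyond its end. It lies at chr7:25705668-25706222, with its nearest edge 591 bp after the gene, and was called with a fold of 8.11 in EF_IGF1_xeno, 8.0 and 6.57 in EF_IGF1, 6.00, 5.10 and 10.2 in EF replicates 1, 3 and 4, and 5.65 in Wt replicate 2. Wt_IGF1, EF replicate 2 and Wt replicates 1, 3 and 4 did not call it. Of the 7 EF, EF_IGF1 and EF_IGF1_xeno libraries 6 thus carried it, and of the 5 Wt and Wt_IGF1 libraries 1, the one with the hematopoietic markers. The part of those markers in the call was not tested.

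Tgfbr3, the gene of the co-receptor betaglycan, held 4 of the 10 regions called in Wt_IGF1 and Wt replicates 3 and 4 and in no other library. That pattern covered 3.98% of the 251 regions and 2.08% of all regions, and the other 6 were at Tgfb2 (2), Smad2, Smad3, Smad6 and Ltbp1 (1 each). The 4 Tgfbr3 regions all lie inside the gene. At chr5:107188597-107189070 the fold was 9.69 in Wt_IGF1 and 8.17 and 6.10 in Wt replicates 3 and 4. At chr5:107283971-107284445 it was 7.06 in Wt_IGF1 and 9.59 and 6.96 in Wt replicates 3 and 4. Tgfbr3 also had 3 of the shared core regions and a gene end called in all 4 EF libraries.

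Tgfb2 showed adjacent regions with opposite calls outside the gene, 142216 and 141452 bp after its start. The region chr1:186567162-186567799 was called in Wt_IGF1 (4.91) and Wt replicates 3 and 4 (5.12 and 9.12) and in no EF, EF_IGF1 or EF_IGF1_xeno library. Its neighbour chr1:186567910-186568580 starts 111 bp past its end. It was called with 13.0 in EF_IGF1_xeno, 15.8 and 15.3 in EF_IGF1, 4.66 and 10.5 in EF replicates 1 and 4 and 7.32 in Wt_IGF1, and in no Wt library. Both were open in Wt_IGF1 alone of all libraries.

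A call rate was then computed for each gene, as the share of its regions called in a library divided by the share of all regions called there, so that 1 is the average of the library. Smad3 had a rate of 1.46, 2.40, 1.52 and 1.48 in EF, against 0, 0.912, 1.41 and 1.43 in Wt. No EF value overlapped a Wt value, the means were 1.71 ± 0.458 and 0.940 ± 0.671 (SD, n = 4 each), and the difference was 0.775 (two-sided exact permutation p = 0.0286, the smallest that 70 label orders allow; adjusted p = 0.734 over 17836 genes). Tgfb3, with 3 regions in all, had rates of 1.02, 2.00, 1.01 and 1.57 in EF, against 0, 0.869, 0.943 and 0.763 in Wt, and its difference was 0.759 with the same exact p and adjusted p. At an unadjusted exact p under 0.05 stood 2 of the 10 genes and 3.89% of all genes, and none of all genes passed the adjustment. With label orders kept within flowcells the exact p was 0.0556 for both, the smallest that 36 orders allow. Without Wt replicate 1, which called no region of either gene, it was 0.114 for both. The numbers of regions called were 19, 16, 20 and 25 for Smad3 in EF, against 0, 14, 20 and 25 in Wt. For Tgfb3 they were 1, 1, 1 and 2 in EF, against 0, 1, 1 and 1 in Wt. With the share of a gene's regions not divided by that of all regions, the exact permutation p was 0.514 for Smad3 and 0.571 for Tgfb3.

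The other 8 genes overlapped between EF and Wt. Smad7 came nearest to separation, at 1.67 ± 0.354 in EF, against 0.989 ± 0.682 in Wt (SD over 4 libraries each; exact permutation p = 0.0857). Tgfbr1 averaged 0.636 ± 0.212 in EF, against 1.09 ± 0.387 in Wt (exact permutation p = 0.114), and Tgfb1 1.41 ± 0.273, against 1.72 ± 1.21. For Tgfb1, a call in 1 of its 6 regions gave Wt replicate 1 a rate of 3.42. The mean was higher in EF for 8 of the 10 genes, against 46.3% of all genes, and the median difference was 0.358, against -0.0280 over all genes. Without both Wt libraries of BSF_0654 the difference turned negative for Tgfb2 (-0.357), Tgfbr3 (-0.133) and Smad6 (-0.0910) and positive for Tgfb1 (0.555).

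**Figure D2:**
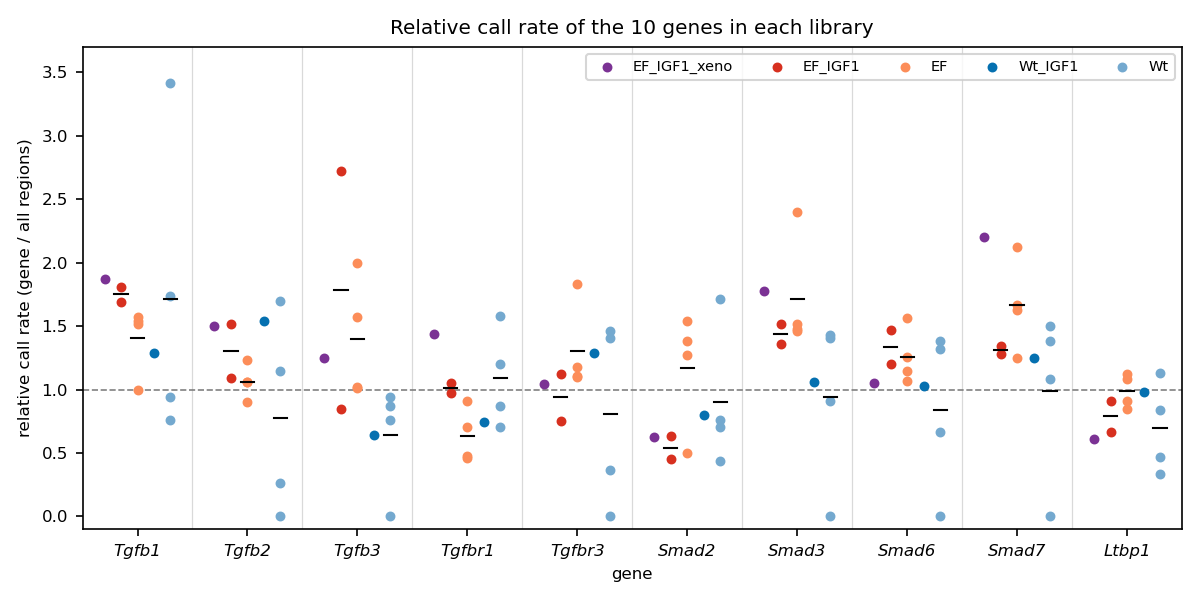
Relative call rate (vertical axis, no unit; 1, dashed, is the average over all regions of a library) of each gene (horizontal axis) in every library, coloured by group; bars are group means where a group has more than 1 library. For Smad3 the 4 EF points lie between 1.46 and 2.40 and the 4 Wt points between 0 and 1.43.

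Order by mean rate in EF cells placed Smad3 (1.71) and Smad7 (1.67) above Tgfb1 (1.41), Tgfb3 (1.40), Tgfbr3 (1.31), Smad6 (1.26), Smad2 (1.17), Tgfb2 (1.06), Ltbp1 (0.990) and Tgfbr1 (0.636). Neighbours in that order lay within 1 SD of each other except Ltbp1 and Tgfbr1. In Wt cells, Wt replicate 1 had a rate of 0 for 6 of the 10 genes and the highest Wt rate for Tgfb1, Tgfbr1 and Smad2.

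IGF1-labelled EF cells were compared with EF cells within flowcell BSF_1013, 2 libraries each. Lost regions, found in the pair of EF libraries and missing from the pair of EF_IGF1 libraries, numbered 11 of 251 (4.38%, against 2.07% of all regions). Gained regions numbered 7 (2.79%, against 2.66%). Among the lost were 3 regions each of Smad3 and Ltbp1, 2 each of Smad2 and Smad7, and 1 of Tgfb2. Leaving out a library here also eases the rule to the 1 library left in that group. Without EF replicate 3 or 4 the number lost was then 32 or 29, and 22 without EF_IGF1 replicate 2. The number gained was 30 without EF replicate 4, and 21 and 11 without EF_IGF1 replicates 1 and 2. Which direction held more regions varied: stricter peaks gave 9 gained and 9 lost, and the top 20000 peaks 5 gained and 4 lost. In line S_221 alone, 38 regions were lost (15.1%, against 10.9% of all regions) and 27 gained (10.8%, against 7.96%).

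Ltbp1 had 3 of the 11 lost regions, all inside the gene. The region chr17:75094442-75095144, 89313 bp into the gene, was called in neither EF_IGF1 library nor in EF_IGF1_xeno, with folds of 7.73, 6.25, 13.7 and 14.1 in EF, 13.1 in Wt_IGF1 and 10.7 and 11.7 in Wt replicates 3 and 4. The region chr17:75168418-75169047 ends 9098 bp before the region of the inner start. It was called in no EF_IGF1 or EF_IGF1_xeno library and with 4.21, 8.91 and 10.7 in EF replicates 1, 3 and 4, 11.3 in Wt_IGF1 and 7.14 and 9.64 in Wt replicates 3 and 4. Every library outside EF_IGF1 and EF_IGF1_xeno had both or 1 of these 2 regions, apart from Wt replicates 1 and 2.

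Libraries that the IGF1 rule did not use can be set beside it. EF_IGF1_xeno called 1 of the 11 lost regions, a Smad3 region (9.09%, against 5.99% of the lost regions of all genes), and 2 of the 7 gained ones (28.6%, against 47.2%). EF replicate 1 called 9 of the 11 and EF replicate 2 called 4 (81.8% and 36.4%, against 72.0% and 12.7%). Wt_IGF1, which carries the IGF1 label in Wt cells, called 9 of the 11 (81.8%, against 70.7%).

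Smad3 and Smad7 lost regions inside the gene with IGF1. At Smad3, chr9:63745879-63746575, 11767 bp after the start, was called in no EF_IGF1 or EF_IGF1_xeno library, with 7.85, 5.38, 6.57 and 2.68 in EF, 5.27 in Wt_IGF1 and 5.65 and 3.6 in Wt replicates 3 and 4. At Smad7, chr18:75391713-75392739 was called in none of these 3 libraries either, with 4.82, 6.31 and 2.78 in EF replicates 1, 3 and 4, 3.74 in Wt_IGF1 and 4.72, 3.90 and 5.26 in Wt replicates 2, 3 and 4. The Smad3 region gained in EF cells, at chr9:63720647-63720976, was among the lost too, and the 2 comparisons share EF replicates 3 and 4. Smad2 lost 2 regions outside the gene, of which chr18:76223356-76223790 had folds of 13.4, 12.0 and 10.4 in EF replicates 1, 3 and 4, 15.4 in Wt_IGF1 and 10.2 in Wt replicate 3.

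Of the 7 gained regions, the one with the highest fold was at Ltbp1, chr17:75216310-75216734, 211042 bp into the gene, with 14.1 and 11.5 in EF_IGF1, 8.57 in EF_IGF1_xeno, 4.75 in Wt replicate 4 and no call in any EF library. At Tgfb2, chr1:186585863-186586109 was called in EF_IGF1 (3.27 and 3.44) and EF_IGF1_xeno (2.96) and nowhere else. Of the 251 regions it alone was called in these 3 libraries and in no other (0.398%, against 0.690% of all regions). Smad6 gained 2 regions, 3943 and 3432 bp after its start, with folds of 2.32 and 2.66, and of 2.64 and 2.79, in EF_IGF1. Smad3 gained 1 at 950 bp (3.28 in each EF_IGF1 library), and none of these 3 was called in EF_IGF1_xeno. Smad3 and Tgfbr3 gained 1 further region each.

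The Smad2 call rate was 0.453 and 0.632 in EF_IGF1, against 1.27 and 1.38 in the EF libraries of the same flowcell. Fewer Smad2 regions were called in the libraries labelled S_220 and S_221 with IGF1, 2 and 3 of 12 in EF_IGF1 against 5 and 7 of 12 in EF. The values of the 2 groups do not overlap, and with 2 libraries each an exact permutation test cannot reach 0.05. Tgfb1, Tgfb2 and Tgfbr1 did not overlap either, with higher rates in EF_IGF1, though for Tgfb2 only by 1.09 and 1.52 against 1.06 and 1.06. How many of all genes separate in this way was not counted, so the separation cannot be called particular to these genes. On the other flowcell, the Smad2 rate of EF replicate 2 lay between the EF_IGF1 values, and that of EF replicate 1 lay above them.

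EF_IGF1_xeno, a single library, was compared with both EF_IGF1 libraries, with no replicate check. Its list was shorter, at 43416 peaks, against 59325 and 63506 in EF_IGF1. Gained were 4 of 251 regions (1.59%, against 0.784% of all regions), 1 each of Tgfbr1, Smad3, Smad6 and Smad7. Lost were 14 (5.58%, against 7.05%), among them 6 of Smad6, 3 of Smad3 and 2 of Ltbp1. Against the S_221 library of EF_IGF1 alone, 5 regions were gained and 46 lost (1.99% and 18.3%, against 1.90% and 15.0%), 14 of the lost at Smad6 and 12 at Ltbp1.

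Smad6, whose product checks BMP signals, held 6 of the 14 lost regions. The region chr9:63918280-63918639, 103626 bp after its start and outside the gene, had no peak in EF_IGF1_xeno and a fold of 10.5 and 9.73 in EF_IGF1, 5.50 and 9.43 in EF replicates 3 and 4, 8.82 in Wt_IGF1 and 4.97, 9.16 and 12.0 in Wt replicates 2, 3 and 4. At Ltbp1, the region chr17:75344970-75345577 had no peak in EF_IGF1_xeno, 7.03 and 5.67 in EF_IGF1, 13.7, 9.14, 14.2 and 11.1 in EF, 8.44 in Wt_IGF1 and 4.82 and 5.56 in Wt replicates 3 and 4. The Smad3 region chr9:63666830-63667532 went the other way, with 5.71 in EF_IGF1_xeno, no call in EF_IGF1, 7.92, 4.72 and 6.10 in EF replicates 1, 3 and 4, 8.79 in Wt_IGF1 and 6.5 and 9.42 in Wt replicates 3 and 4. Smad7 had the highest call rate of the 10 genes in EF_IGF1_xeno, 2.20, against 1.28 and 1.34 in EF_IGF1, and Ltbp1 the lowest, 0.614, against 0.668 and 0.912.

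**Figure D3:**
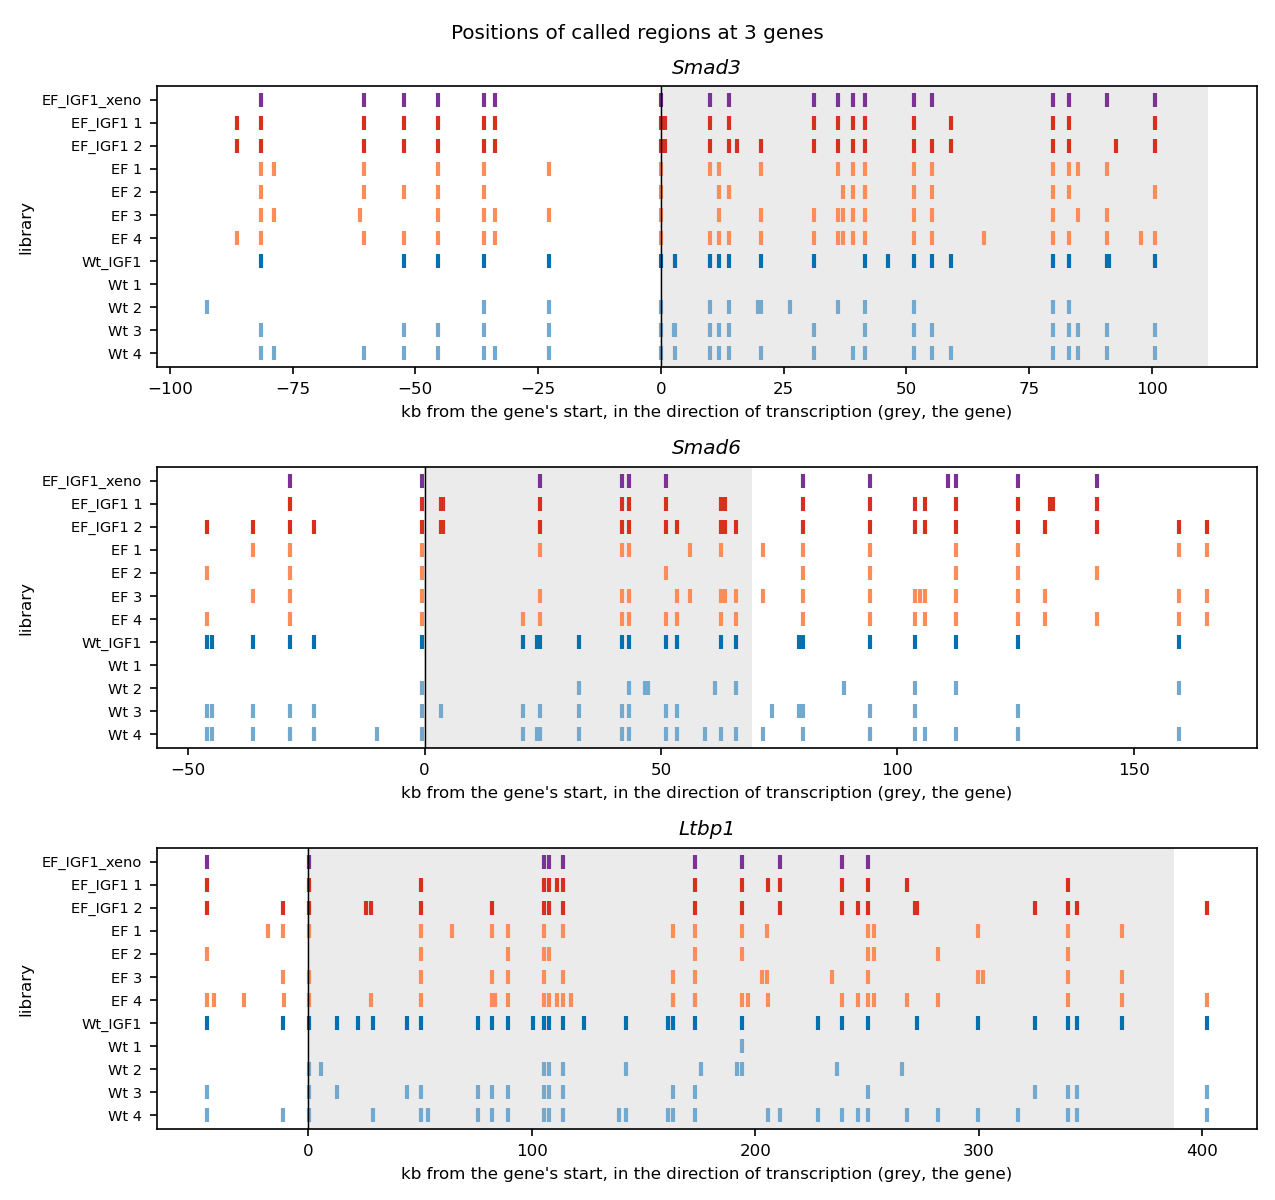
Called regions of Smad3, Smad6 and Ltbp1 in each library (rows), placed by the distance in kb of their midpoint from the gene's start in the direction of transcription (horizontal axis); grey marks the gene and colours mark the groups as in the row names. The Ltbp1 tick 89313 bp into the gene is present in all EF rows and absent from the EF_IGF1 and EF_IGF1_xeno rows.

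Wt_IGF1, also a single library, was compared with the 2 Wt libraries of its flowcell. It gained 19 regions (7.57%, against 10.3% of all regions) and lost 1 (0.398%, against 0.639%), and it had the longest peak list, 83718 peaks, against 57324 and 69703 in Wt. Ltbp1 held 6 of the gained regions, Tgfb2 and Tgfbr3 4 each, Smad3 2, and Tgfb1, Tgfbr1 and Smad7 1 each. Against the Wt library titled BM alone the counts were 39 gained and 4 lost (15.5% and 1.59%, against 18.2% and 1.97%). The share of gained regions at the 10 genes was thus below that of all regions in both versions.

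Among these, the Ltbp1 region chr17:75199392-75200138, 194285 bp into the gene, was called with 6.39 in Wt_IGF1 and in neither Wt library of the flowcell, but with 5.14 and 10.4 in Wt replicates 1 and 2. It was the 1 Ltbp1 region called in Wt replicate 1. It also had 8.07 in EF_IGF1_xeno, 6.61 and 6.07 in EF_IGF1, and 4.79, 5.24 and 6.46 in EF replicates 1, 2 and 4. The lost region was at Smad3, chr9:63672780-63673356, with no call in Wt_IGF1 and 5.81 and 4.57 in Wt replicates 3 and 4. It was called in EF replicates 1 and 3, both of line S_220 (4.91 and 8.63).

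**Figure D4:**
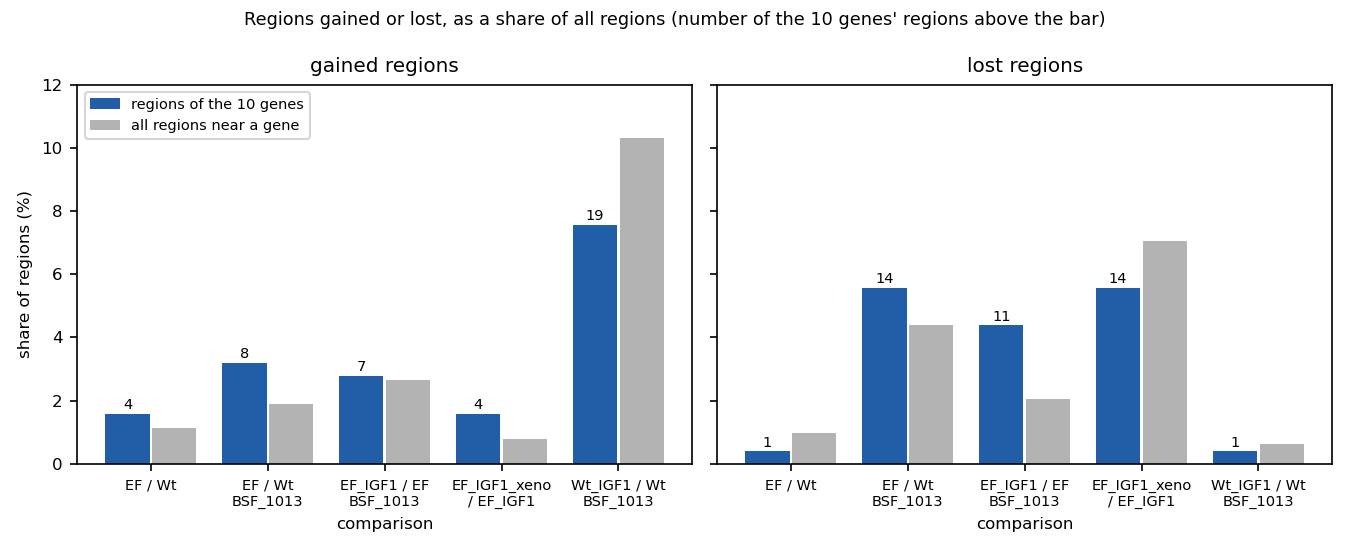
Share of regions gained (left) and lost (right) in each comparison, in percent, for the 251 regions of the 10 genes (blue, with their number above the bar) and for all 136540 regions (grey). The largest excess over all regions in points is in the loss with IGF1 in EF cells, 4.38% against 2.07%.

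A list of 32 other genes of the pathway was read in the same way. It covered latency and activation, receptors, signal transducers, negative regulators and target genes, and 31 genes held 481 regions (Foxh1 held none). EF cells gained 2 and lost 3 of them against Wt (0.416% and 0.624%, against 1.15% and 0.978% of all regions). The gained regions were at Trim33, a SMAD-binding ubiquitin ligase, and the target Ccn2, and the lost ones at the type II receptor Tgfbr2, the receptor Acvrl1 and the repressor Ski, 1 each. Within BSF_1013 EF cells gained 8 and lost 23 (1.66% and 4.78%, against 1.89% and 4.40% of all regions), 4 of the lost at Fbn1, which encodes the matrix protein fibrillin.

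With IGF1, EF cells gained 13 and lost 11 of the 481 regions (2.70% and 2.29%, against 2.66% and 2.07% of all regions). The gained included 2 each at the ubiquitin ligase Smurf1 and the target Tgfbi, and the lost 2 each at the activator Thbs1 and the target Snai1. EF_IGF1_xeno gained 4 and lost 24 against EF_IGF1 (0.832% and 4.99%, against 0.784% and 7.05% of all regions), with 5 of the lost at Trim33 and 3 at Lrrc32, which tethers latent TGF-beta to the cell surface. Wt_IGF1 gained 46 and lost 9 against Wt (9.56% and 1.87%, against 10.3% and 0.639% of all regions), with 6 gained each at Fbn1 and Nedd4l, 4 at Smad4 and 2 lost at Tgfbr2.

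Among the 4441 genes with at least 10 regions, Adcy8, Efcab1 and Plce1 had the pattern most like that of Ltbp1 over the 12 relative call rates, with Pearson correlations of 0.946, 0.927 and 0.917. These are descriptions over libraries that share the same lists. Ltbp1 had its lowest rate, 0.337, in Wt replicate 1, and the part of that library in the correlations was not tested.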

How the data were processed

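Peaks were called per library with MACS2 on GRCm38.p3, per the submitters' processing notes; its version, the aligner, read filters and any transposase shift were not given in the sources used here. Without read totals the depth is unknown, and the number of peaks stands for it. Each deposited list holds a score, a summit, the −log10 of each peak's p-value and q-value (lowest −log10 q 2.03 to 2.60) and its fold, a ratio to local background. These are the authors' values and served only within their own list. Peaks on chromosomes 1 to 19 and X were kept, leaving out 23 to 43 per library. Merging gave 153346 regions, of which 136540 lay within 100 kb of 1 of 21631 protein-coding RefSeq genes (GRCm38.p6, which shares p3's chromosome coordinates).

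Single regions were not tested. Relative call rates of EF and Wt were compared by exact permutation with Benjamini-Hochberg adjustment over 17836 genes, in Python 3.11.15 (numpy 2.4.6, pandas 2.3.3, scipy 1.17.1, matplotlib 3.10.9); the code was tested on simulated data. The members, lists and rules were chosen with earlier results of these data known. Named were all 10 genes, their gene-end and promoter regions, the region in most libraries, up to 4 gained or lost regions per gene and direction, up to 4 list genes per comparison, and the 3 genes most like Ltbp1; the strongest shared regions were picked after their values were seen. Alternatives were stricter peaks, the top 20000 peaks, 50% cover, summit windows of 250 bp each side, a 20 kb limit, left-out libraries, flowcells, lines and unscaled rates. Leaving out Wt replicates 1 and 2 together, leaving out 1 library with 3 calls still needed, adding Wt_IGF1 to Wt, and the motif GTCTAGAC were added after seeing the data.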

Additional observations from a re-analysis of the deposited data

Results flagged for a closer look

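EF replicate 2, the EF library with the fewest calls at these genes (60 of 251), lay far from the other 3 EF libraries for 3 genes, by Dixon's criterion on the gap between a library and its neighbour. Its relative call rate was 1.00 for Tgfb1, against 1.52 to 1.57 in the other EF libraries. It was 1.83 for Tgfbr3, against 1.10 to 1.18, and 2.40 for Smad3, against 1.46 to 1.52. Chance marks about 1 in 20 groups in this way. EF replicate 2 called 16.7% of all regions, against 32.5% to 42.4% in the other EF libraries. How many of all genes it would be marked for was not counted, and the part of the short list in these values was not tested.

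Taken against Wt replicate 3, the IGF1 label went with opposite changes of the relative call rate in EF and Wt cells for 4 genes. Of these, only Smad2 kept opposite changes against Wt replicate 4. EF_IGF1 minus EF was taken as the mean over both line titles, counting only genes that moved the same way under both titles. Wt_IGF1 minus Wt replicate 3 gave the change in Wt cells. The changes were 0.239 in EF and -0.155 in Wt cells for Tgfb2, 0.204 and -0.129 for Tgfbr1, -0.780 and 0.0962 for Smad2, and -0.195 and 0.145 for Ltbp1. Agreement of the line labels in EF cells was part of this choice, with changes of -0.814 and -0.745 for Smad2. It left out Tgfb3, with changes of 1.70 and -0.731 in EF cells and -0.300 in Wt cells. How many of all genes show such opposite changes was not counted. Against Wt replicate 4 of the same flowcell, the change in Wt cells was 0.397 for Tgfb2, 0.0369 for Tgfbr1 and -0.146 for Ltbp1, which ends the opposition for these 3 genes, and 0.0400 for Smad2. With 1 library in Wt_IGF1, the difference between EF and Wt cells was not tested.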

How the results depend on the processing

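Replicate numbers follow the order of the libraries and pair nothing, so no fit with a replicate block was made. Line titles do pair EF_IGF1 with EF on flowcell BSF_1013, and asking for the same change under both titles is the rule already used. The EF_IGF1 library titled S_220 shared more calls with EF replicate 4 of S_221 (Jaccard index 0.599) than with EF replicate 3 of S_220 (0.406). The rule may therefore not show a change in 2 lines, and line and IGF1 label may not be separable here. For EF against Wt (4 gained, 1 lost), leaving out 1 library with 3 calls still needed, an alternative chosen after seeing the data, gave 0 to 7 gained and 0 to 1 lost. Leaving out 1 library with the rule eased to 2 of 3 in its group gave 4 to 12 gained and 1 to 15 lost; flowcell BSF_1013 alone and leaving out both Wt libraries of BSF_0654 each gave 8 and 14, merging EF by line gave 7 gained, adding Wt_IGF1 to Wt gave 15 lost, and requiring 50% cover gave 7 and 0. For EF_IGF1 against EF (7 and 11), leaving out 1 library, which eases the rule to 1 of 1 in its group, gave 9 to 30 gained and 11 to 32 lost, line S_221 alone 27 and 38, stricter peaks 9 and 9, and the top 20000 peaks 5 and 4. For EF_IGF1_xeno (4 and 14), the top 20000 peaks gave 1 and 4, and line S_221 alone 46 lost. For Wt_IGF1 (19 and 1), the top 20000 peaks gave 4 and 5, the Wt library titled BM alone 39 and 4, stricter peaks 2 lost and 50% cover 3 lost. The shorter distance to a gene and the summit windows left every count of the 10 genes within 1.5 times. So did stricter peaks, the 1 alternative run there, for the list of 32 genes.

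The number of the 10 genes at an unadjusted exact p under 0.05, 2 as reported, was 1 with stricter peaks (Tgfb3, with Smad3 at 0.0571) and 1 with the top 20000 (Smad7 at an exact p of 0.0286, with Smad3 at 0.60 and Tgfb3 at 0.714), 0 to 2 without 1 library, and 0 unscaled, within flowcells (where the smallest p is 0.0556) or without both Wt libraries of BSF_0654 (where it is 0.0667). Direction reversed for Smad2 with the top 20000 peaks (-0.271), for Tgfb1 without Wt replicate 1 (0.260, with -0.627 as the lowest value without 1 library), unscaled (0.0833) and without both Wt libraries of BSF_0654 (0.555), and in that last setting for Tgfb2 (-0.357), Tgfbr3 (-0.133) and Smad6 (-0.0910). Of the 130 values of single genes under an alternative, 102 kept direction and side of the threshold. The 19 that lost an exact p under 0.05 were all of Smad3 and Tgfb3, the 2 genes under it as reported. The other genes had no such p to lose. Apart from the eased rules, the causes were not tested. Length of a list limits what a missing call shows: a region not called may lie below the depth of that library.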
